A study of Mus musculus with 6 samples.

Results

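The genes examined here carry out mitosis: they drive entry into division, build the spindle, hold chromosomes to it at the kinetochore, guard the attachment and split the cell. They were taken from a list of 40 genes, of which 39 were measured among the 22180 genes tested, each on 1 probe set annotated to that symbol alone. Ccnb1, which encodes cyclin B1, had no such probe set in the annotation used and is not analysed here. The study treated macrophages with an antibody against the receptor CSF1R (labelled CS7, 0.5 nM for 3 days), 3 arrays, and set them against macrophages given a control IgG over the same time, 3 arrays. All 6 cultures came from bone marrow of C57BL/KaLwRij mice, 3 in the study, matured with M-CSF, the ligand of CSF1R, for 7 days. All were kept with 5TGM1-luc cells, a mouse myeloma line carrying luciferase, from the night before the antibody was added, and were washed 4 times before RNA was taken. No age or sex of the mice was used, and nothing in the labels links a culture to 1 mouse, so p-values measure the spread between these cultures, which may be technical.

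Mitosis is driven by Cdk1 bound to cyclins A and B, whose genes peak late in the cycle along with those of the spindle and kinetochore proteins. That wave of transcription is controlled through 2 short promoter elements. The CHR element is bound in resting cells by the repressive DREAM complex and in dividing cells by B-Myb and Foxm1 with the MuvB core, while CCAAT boxes are bound by NF-Y. In bone marrow cultures, M-CSF acts through CSF1R as both a survival factor and a mitogen for macrophages and their precursors. Myeloma lines also divide in culture.

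The promoters of 5 members that fell and of Cenpa, the member that rose, are shown to place these elements. Each stretch is the 120 bases before the annotated transcription start in RefSeq (GRCm38.p6), written 5′ to 3′ along the gene, with capitals marking TTTGAA (the CHR letters) and CCAAT on either strand.
Cdk1 (chr10:69352913-69353032, minus strand): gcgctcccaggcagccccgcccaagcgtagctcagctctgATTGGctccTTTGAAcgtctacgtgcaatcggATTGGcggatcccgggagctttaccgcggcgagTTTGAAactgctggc
Top2a (chr11:99024190-99024309, minus strand): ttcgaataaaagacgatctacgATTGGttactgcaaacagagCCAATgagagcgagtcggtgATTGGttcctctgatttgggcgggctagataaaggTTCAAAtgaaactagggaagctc
Cdc20 (chr4:118437344-118437463, minus strand): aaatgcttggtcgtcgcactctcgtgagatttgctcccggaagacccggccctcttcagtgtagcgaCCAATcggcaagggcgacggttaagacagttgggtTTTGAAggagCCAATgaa
Ube2c (chr2:164769809-164769928, plus strand): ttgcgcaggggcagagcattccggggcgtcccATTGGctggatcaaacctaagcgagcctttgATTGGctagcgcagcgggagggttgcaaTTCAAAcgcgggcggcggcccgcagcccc
Espl1 (chr15:102296173-102296292, plus strand): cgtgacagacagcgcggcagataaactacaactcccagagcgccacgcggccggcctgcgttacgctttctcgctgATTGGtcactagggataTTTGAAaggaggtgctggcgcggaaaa
Cenpa (chr5:30666766-30666885, plus strand): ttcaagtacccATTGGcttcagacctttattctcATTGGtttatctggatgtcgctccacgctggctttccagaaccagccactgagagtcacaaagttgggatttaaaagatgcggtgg
Cdk1 held TTTGAA at 71 and again at 15 bases before its start, the first just downstream of a CCAAT box and the second further from one. Top2a, Cdc20, Ube2c and Espl1 each held 1 TTTGAA and at least 1 CCAAT in the stretch. Cenpa held 2 CCAAT boxes and no TTTGAA in the stretch, and its single TTTGAA lay 17 bases past the start. That place was not particular to Cenpa: among the 32 genes that fell and had a promoter, 13 held TTTGAA before the start, 13 only past it, Plk1, Ttk and Hmmr among them, and 6, such as Bub1 and Nek2, held none.

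A RefSeq promoter, 250 bases before the start and 50 after it, was found for 33 of the 39 measured genes, and not used here for Foxm1, Ccna2, Aurkb, Incenp, Tpx2 and Kif20a. TTTGAA occurred in 27 of the 33, against 20.2% of all 27025 genes in the promoter table. CCAAT occurred in 26 of the 33, against 41.1% of all, and both together in 23, against 7.97%. The letters of the 2 motifs overlapped in 1 promoter of these genes and in 47 of all 32851 promoters. Among tested genes with a promoter, 19.0% of the 1212 holding both motifs fell, against 16.4% of the 15778 others. These are matches of letters and show no binding.

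With the CSF1R antibody, 38 of the 39 mitosis genes fell and 1, Cenpa, rose (limma, adjusted p below 0.05 over 22180 genes). Of all genes tested, 16.0% fell and 12.5% rose. Among the 13116 genes above a guide to background (4.92 on the log2 scale, below which lay 95% of 1394 receptor genes of smell and pheromone sensing), where all 39 lay, 26.0% fell. With the fit limited to the 11090 genes above the 50th percentile of mean signal, all 39 among them, 36.4% fell and 25.4% rose. The 3 antibody values lay wholly below the 3 IgG values for those same 38 genes, against 22.7% of all genes. Above the guide this held for 4604 of the 13116 genes. The median log2 difference was −0.51, a level at 70.3% of that with IgG, where the median over all genes was −0.02. In RNA of a whole culture, fewer dividing cells and less of these transcripts per cell cannot be told apart. With cyclic loess scaling, under which 10.6% of all genes fell and 15.4% rose, 37 fell and 1 rose, with a median of −0.39.

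**Figure D1:**
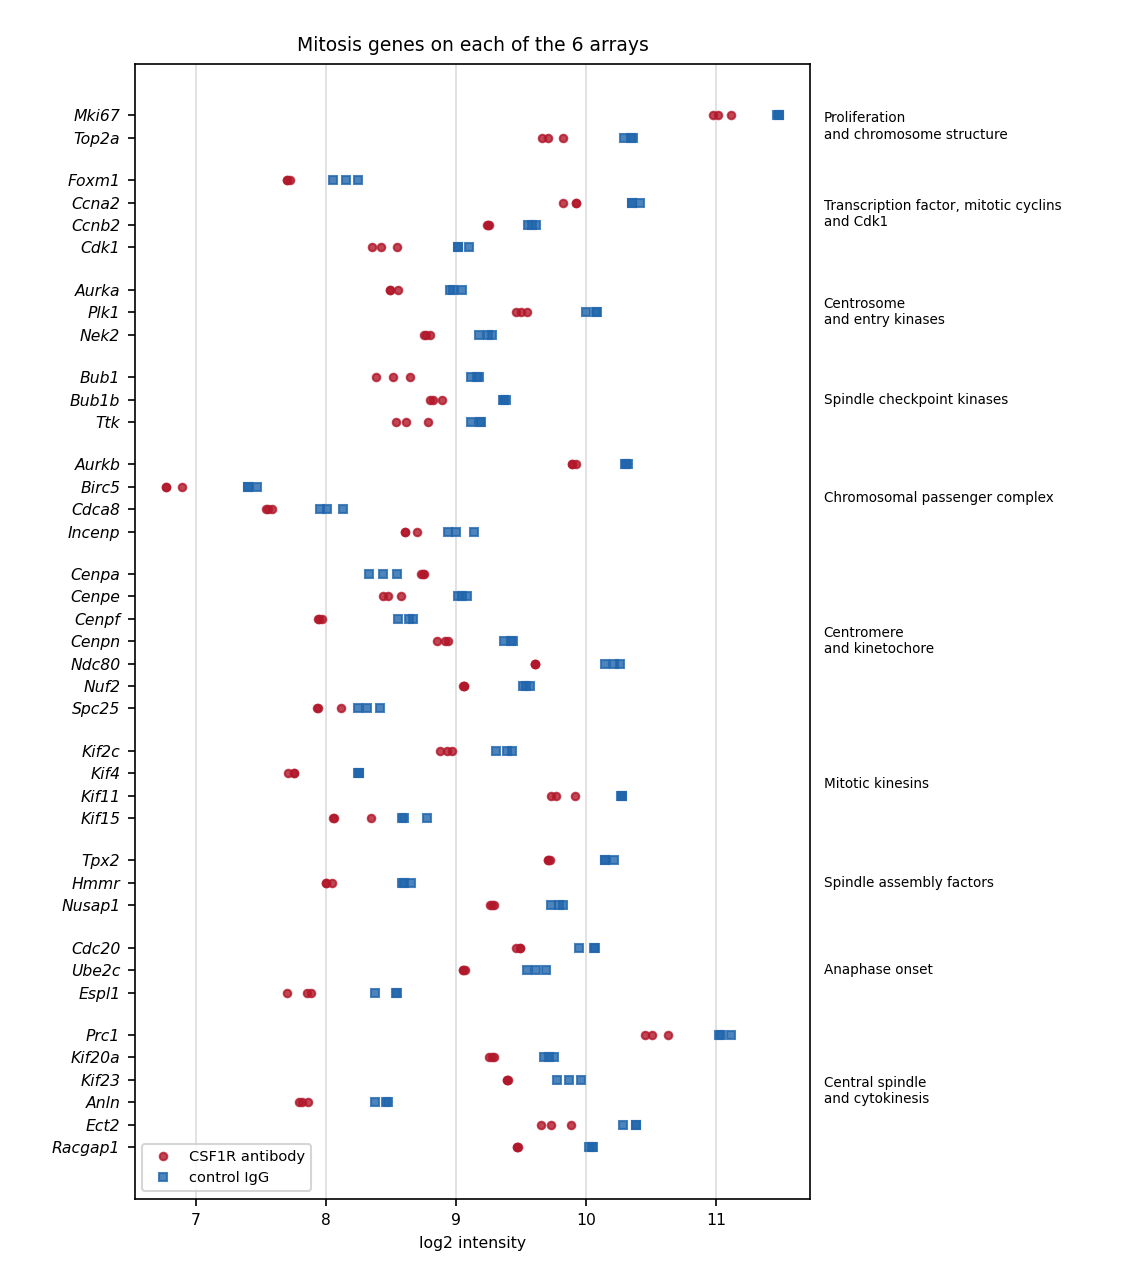
Log2 intensity of the 39 mitosis genes (rows, grouped by role) on each array, with circles for the 3 CSF1R antibody arrays and squares for the 3 control IgG arrays. In every row but that of Cenpa the circles lie to the left of the squares, without overlap.

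The falls were moderate and alike in size. Among the 38 genes they ran from 0.33 for Spc25 to 0.68 for Espl1 on the log2 scale, with an SD between genes of 0.08 against a median SE of 0.05 for a single gene. None of the 39 changed by 2-fold, and 10 fell by at least 1.5-fold. Among the 22180 genes tested, 260 were called lower with a fall of at least 1.5-fold, and 14 with one beyond 2-fold. Of the 39, 34 lay below −0.44, the 5th percentile of the difference over all genes, those below the guide included. Over the 38 genes, Spearman's rho between mean level and difference was 0.20, given as a description, since all points share the same 6 arrays. The 19 genes of lower signal had a median of −0.52 and the 19 of higher signal one of −0.50. Of all genes called lower, 112 fell further than Espl1.

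The transcription factor, cyclins and kinase that bring a cell into mitosis fell together. Cdk1, the mitotic kinase itself, read 8.35, 8.42 and 8.55 on the antibody arrays, against 9.02, 9.10 and 9.02 on the IgG arrays. It fell by 0.61 (SE 0.06; adjusted p = 0.00069), to 65.8% of its IgG level. Its partner Ccnb2, cyclin B2, moved least of this group. Ccnb2 read 9.24, 9.24 and 9.25 on the antibody arrays, against 9.55, 9.58 and 9.62 on the IgG arrays, a fall of 0.34 (SE 0.04; adjusted p = 0.0016). Foxm1, the forkhead factor that switches on many of the genes described here, read 7.70, 7.70 and 7.72 on the antibody arrays, against 8.15, 8.05 and 8.25 on the IgG arrays. It fell by 0.45 (SE 0.06; adjusted p = 0.0019), with the IgG arrays the more scattered. Ccna2, cyclin A2, fell by 0.49. In all 4 genes the groups were apart by more than the spread within either.

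Kinases of the centrosome and of mitotic entry also fell, 3 of 3. Plk1, Polo-like kinase, which acts on centrosomes, kinetochores and the division site, read 9.46, 9.55 and 9.50 on the antibody arrays, against 10.08, 10.08 and 10.00 on the IgG arrays, a fall of 0.55 (SE 0.05; adjusted p = 0.00037). Nek2, which loosens the link between the centrosomes, read 8.77, 8.76 and 8.80 on the antibody arrays, against 9.18, 9.25 and 9.28 on the IgG arrays, a fall of 0.46 (SE 0.05; adjusted p = 0.00065). Aurka, Aurora A, which matures the centrosome, fell by 0.48. In all 3 genes the highest antibody value was lower than the lowest IgG value.

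The 3 spindle checkpoint genes fell, Bub1 the most. Bub1, which marks centromeric chromatin and recruits checkpoint proteins, read 8.38, 8.51 and 8.64 on the antibody arrays, against 9.12, 9.16 and 9.18 on the IgG arrays. It fell by 0.64 (SE 0.07; adjusted p = 0.00093). The antibody arrays were spread more widely than the IgG arrays, with replicate 3 the highest, and still did not reach them. Ttk, the kinase also called Mps1 that starts checkpoint signalling, had the same arrangement, reading 8.54, 8.62 and 8.78 on the antibody arrays, against 9.11, 9.19 and 9.19 on the IgG arrays. It fell by 0.52 (SE 0.07; adjusted p = 0.0023). Bub1b, whose product BubR1 inhibits the anaphase-promoting complex, fell by 0.54.

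The chromosomal passenger complex corrects faulty attachments and then moves to the central spindle. All 4 of its genes fell. Birc5, survivin, which brings the complex to the centromere, read 6.77, 6.89 and 6.77 on the antibody arrays, against 7.40, 7.46 and 7.40 on the IgG arrays. It fell by 0.61 (SE 0.06; adjusted p = 0.00034). Incenp, the scaffold on which the kinase sits, read 8.605, 8.605 and 8.699 on the antibody arrays, against 8.999, 9.142 and 8.937 on the IgG arrays, a fall of 0.39 (SE 0.07; adjusted p = 0.0054). The kinase gene Aurkb fell by 0.41 and Cdca8, borealin, by 0.47.

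Of 7 centromere and kinetochore genes, 6 fell and Cenpa rose. Cenpf, a large protein of the outer kinetochore, moved most and read 7.94, 7.94 and 7.97 on the antibody arrays, against 8.56, 8.67 and 8.64 on the IgG arrays. It fell by 0.67 (SE 0.05; adjusted p = 0.00014), to 62.8% of its IgG level. The Ndc80 complex, which grips microtubules, was covered by 3 genes: Ndc80 fell by 0.60, Nuf2 by 0.48 and Spc25 by 0.33. Cenpe, a kinesin that carries chromosomes to the spindle equator, fell by 0.55, and Cenpn, which reads the centromeric nucleosome, by 0.51. Spc25 was the weakest call (adjusted p = 0.015). It was lost without antibody replicate 1 (adjusted p = 0.057), antibody replicate 3 (0.053), IgG replicate 2 (0.0504) or IgG replicate 3 (0.054), and with cyclic loess (0.069).

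Cenpa encodes the histone H3 variant that marks the centromere. It read 8.73, 8.75 and 8.75 on the antibody arrays, against 8.54, 8.33 and 8.43 on the IgG arrays. All 3 antibody values were higher than the highest IgG value, and the IgG arrays were the more scattered. It rose by 0.31 (SE 0.06; adjusted p = 0.011), with a 95% interval from 0.15 to 0.46, to 124% of its IgG level. The adjusted p ran from 0.0084 to 0.042 when each array was left out in turn, and the rise was 0.42 with cyclic loess. In the RefSeq gene table (GRCm38.p6, used for names and order only), the protein-coding gene before Cenpa on chromosome 5 was Slc35f6 and the one after it Dpysl5, neither overlapping it. These 2 were looked up after the value of Cenpa was seen. Slc35f6 rose by 0.85 and Dpysl5 fell by 0.40 on the log2 scale (limma adjusted p = 4.9e-05 and 0.00082). Some genes that fell, Spc25, Top2a, Kif11 and Ect2 among them, also lay next to a gene called higher. Strand and distance of the neighbours were not taken into account. The part of neighbouring transcripts in the Cenpa signal was not tested.

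**Figure D2:**
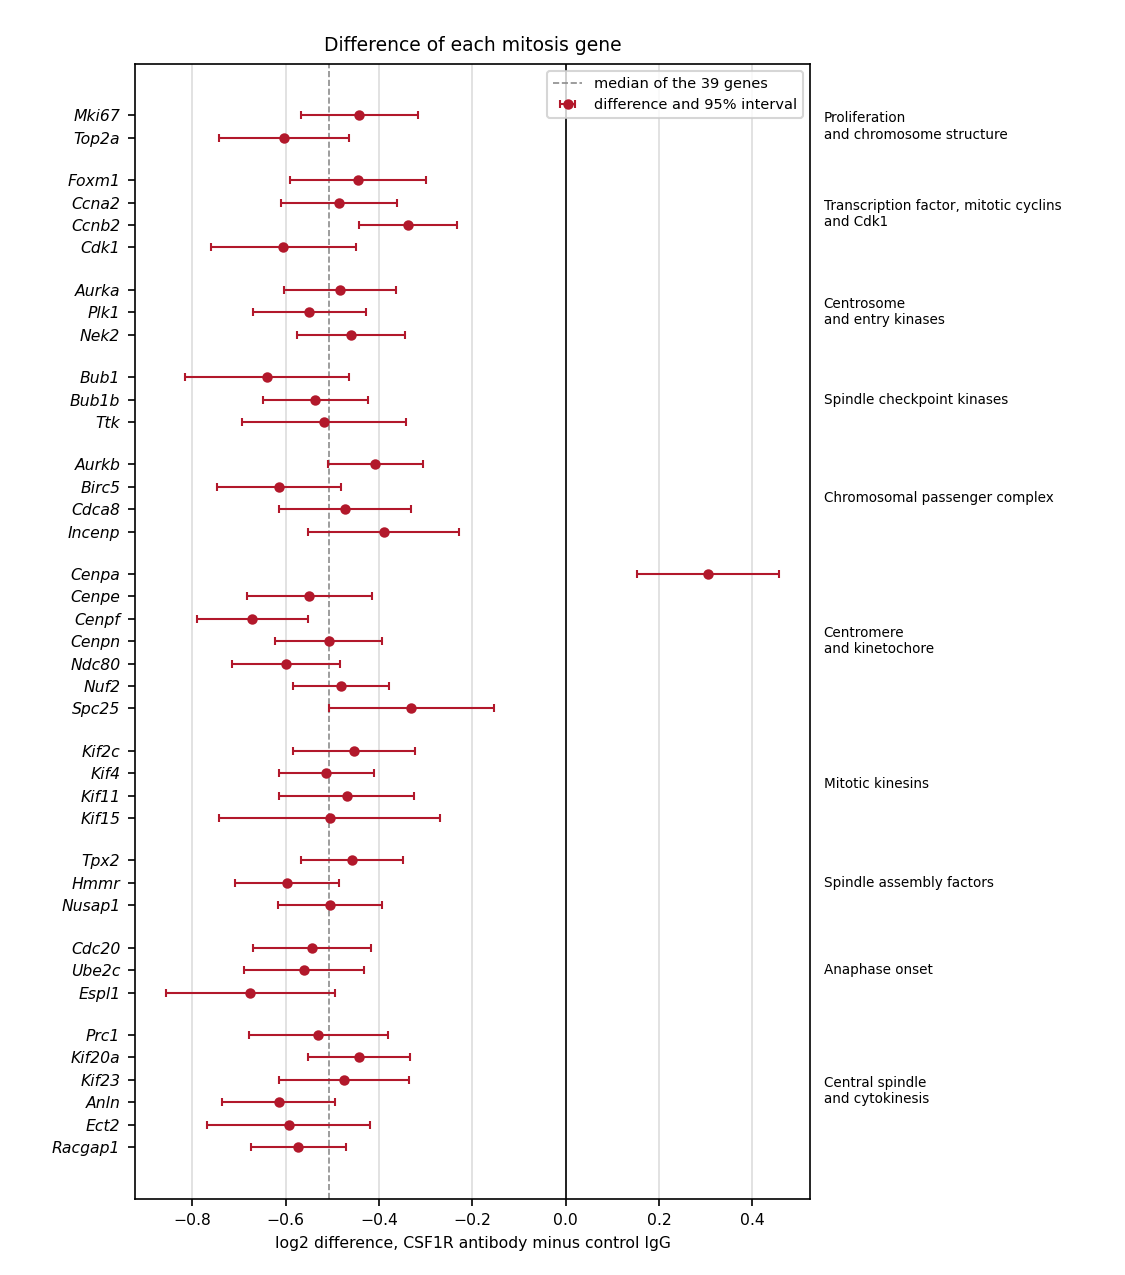
Log2 difference of each of the 39 genes, CSF1R antibody minus control IgG, with limma's 95% interval, grouped by role. The intervals of 38 genes lie below 0 and that of Cenpa above it, and the dashed line marks the median of −0.51.

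Mitotic kinesins fell in 4 of 4 cases. Kif4, which shapes chromosome arms and the midzone, read 7.71, 7.75 and 7.75 on the antibody arrays, against 8.25, 8.24 and 8.25 on the IgG arrays, a fall of 0.51 (SE 0.04; adjusted p = 0.00024). Kif2c, which takes microtubules apart at centromeres, read 8.93, 8.97 and 8.88 on the antibody arrays, against 9.43, 9.31 and 9.39 on the IgG arrays, a fall of 0.45 (SE 0.05; adjusted p = 0.0011). Kif11, the motor Eg5 that pushes the spindle poles apart, fell by 0.47, and Kif15, which can stand in for it, by 0.50. Kif15 had the widest error of the 39 genes, with an SE of 0.10 and antibody replicate 3 apart from the other antibody arrays, at 8.34 against 8.05 and 8.06.

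The spindle assembly factors fell in 3 of 3 cases. Hmmr, a microtubule-associated protein of the spindle pole, read 8.002, 8.002 and 8.043 on the antibody arrays, against 8.596, 8.657 and 8.584 on the IgG arrays, a fall of 0.60 (SE 0.05; adjusted p = 0.00017). Tpx2, which activates Aurora A and nucleates microtubules near chromosomes, read 9.71, 9.72 and 9.71 on the antibody arrays, against 10.14, 10.22 and 10.15 on the IgG arrays, a fall of 0.46 (SE 0.05; adjusted p = 0.00051). Nusap1, which bundles spindle microtubules, fell by 0.50. For Hmmr and Tpx2 the antibody arrays were closer to each other than the IgG arrays were.

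At anaphase onset, Cdc20 directs the anaphase-promoting complex to securin and cyclin B, and separase then cuts cohesin. Espl1, the separase gene, read 7.85, 7.88 and 7.70 on the antibody arrays, against 8.54, 8.37 and 8.55 on the IgG arrays. It had the largest fall of the 39, 0.68 (SE 0.08; adjusted p = 0.00083). Cdc20 read 9.49, 9.49 and 9.46 on the antibody arrays, against 10.07, 9.94 and 10.06 on the IgG arrays, a fall of 0.54 (SE 0.05; adjusted p = 0.00046). Ube2c, the ubiquitin-conjugating enzyme of that complex, fell by 0.56.

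Genes of the central spindle and of cytokinesis fell in 6 of 6 cases. Anln, anillin, which organises the contractile ring, read 7.81, 7.79 and 7.86 on the antibody arrays, against 8.38, 8.47 and 8.46 on the IgG arrays, a fall of 0.61 (SE 0.05; adjusted p = 0.00022). Kif20a, a kinesin that takes regulators to the midzone, moved least in this group. Kif20a read 9.26, 9.29 and 9.28 on the antibody arrays, against 9.68, 9.76 and 9.72 on the IgG arrays, a fall of 0.44 (SE 0.05; adjusted p = 0.00059). The centralspindlin pair Kif23 and Racgap1 fell by 0.48 and 0.57, and Ect2, the exchange factor for RhoA that they recruit, by 0.59. Prc1, which crosslinks midzone microtubules, fell by 0.53.

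The common markers of dividing cells, Mki67 and Top2a, fell too. Mki67, which coats mitotic chromosomes and encodes the antigen Ki-67, read 11.02, 10.98 and 11.12 on the antibody arrays, against 11.49, 11.49 and 11.47 on the IgG arrays. It fell by 0.44 (SE 0.05; adjusted p = 0.0011) and remained at 73.6% of its IgG level. Top2a, which untangles sister DNA, read 9.66, 9.71 and 9.82 on the antibody arrays, against 10.29, 10.36 and 10.35 on the IgG arrays, a fall of 0.60 (SE 0.06; adjusted p = 0.00045). On both, the antibody arrays were the more spread, and replicate 3 was the highest of them. That array held the highest antibody value for 21 of the 39 genes, and IgG replicate 2 held the highest IgG value for 21 of them. Averaged over the 39 genes, log2 levels were 8.86, 8.89 and 8.92 on the antibody arrays, against 9.37, 9.40 and 9.39 on the IgG arrays. Each antibody array was apart from every IgG array by far more than arrays of a group were from each other. For 14 of the 39 genes, 2 or 3 antibody arrays held exactly equal values.

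Other genes of mitosis, 129 measured of 137 listed, were lower in most groups: the test called 98 lower and 6 higher, and the median log2 difference was −0.41. Of 22 other centromere and kinetochore genes, 20 fell and 1 rose (median −0.48). Knl1, the scaffold that docks Bub1, fell by 0.73 (SE 0.04; adjusted p = 4.6e-05) and Ska2 by 0.70 (SE 0.09; adjusted p = 0.0016), though the dimmer of the 2 Ska2 probe sets gave a difference of 0.08 (adjusted p = 0.51). Cenpo, of the constitutive centromere network, rose by 0.27 (SE 0.06; adjusted p = 0.018), but was no longer called without antibody replicate 1 (adjusted p = 0.051), antibody replicate 2 (0.066) or IgG replicate 1 (0.060). Of 10 other checkpoint genes, 8 fell and 0 rose (median −0.55). Among them the shugoshin genes, which guard centromeric cohesion, fell by 0.65 (Sgo1; SE 0.05) and 0.62 (Sgo2a; SE 0.12).

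Of 20 other genes of mitotic entry, 17 fell and 1 rose (median −0.42). Cdc25c, the phosphatase that activates Cdk1, fell by 0.82 (SE 0.05; adjusted p = 7.2e-05), further than any of the 39 genes above. Mastl, the Greatwall kinase that shuts off the opposing phosphatase PP2A, fell by 0.56 (SE 0.04). Ensa, one of the small proteins through which Greatwall acts on PP2A, rose by 0.44 (SE 0.09; adjusted p = 0.0096). Of 26 other spindle and motor genes, 22 fell and 1 rose (median −0.46). Kifc1, a minus-end kinesin, fell by 0.77 (SE 0.18; adjusted p = 0.019), a call lost without IgG replicate 2 (adjusted p = 0.056) or IgG replicate 3 (0.068). Ckap2l fell by 0.66 (SE 0.05). Haus8, of the augmin complex, rose by 0.23 (adjusted p = 0.033), but was no longer called without antibody replicate 1 (adjusted p = 0.094), antibody replicate 2 (0.096), antibody replicate 3 (0.061) or IgG replicate 2 (0.052).

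Of 19 genes of condensin, cohesin and related chromosome proteins, 16 fell and 0 rose (median −0.39). Ncapd2, a condensin I subunit, fell by 0.59 (SE 0.05) and Cdca5, sororin, which stabilises cohesin on replicated DNA, by 0.57 (SE 0.06). The anaphase-promoting complex moved less, with a median of −0.17, 9 of 17 lower and 0 higher. The 2 largest falls there were not core subunits: Ube2s, a ubiquitin-conjugating enzyme that works with it, fell by 0.46 (SE 0.05) and Fbxo5, its inhibitor Emi1, by 0.45 (SE 0.07). Of 15 other cytokinesis genes, 6 fell and 3 rose (median −0.02). Of all genes 16.0% fell and 12.5% rose, and of the 13116 above the guide 3414 fell and 2633 rose. Depdc1a fell by 0.67 (SE 0.07). The 3 that rose were Kif13a, an endosomal kinesin, by 0.68 (SE 0.10), Septin9, a cytoskeletal GTPase, by 0.33 (SE 0.04), and Chmp4b. Chmp4b, an ESCRT-III subunit that cuts membranes, rose by 0.29 (SE 0.05).

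**Figure D3:**
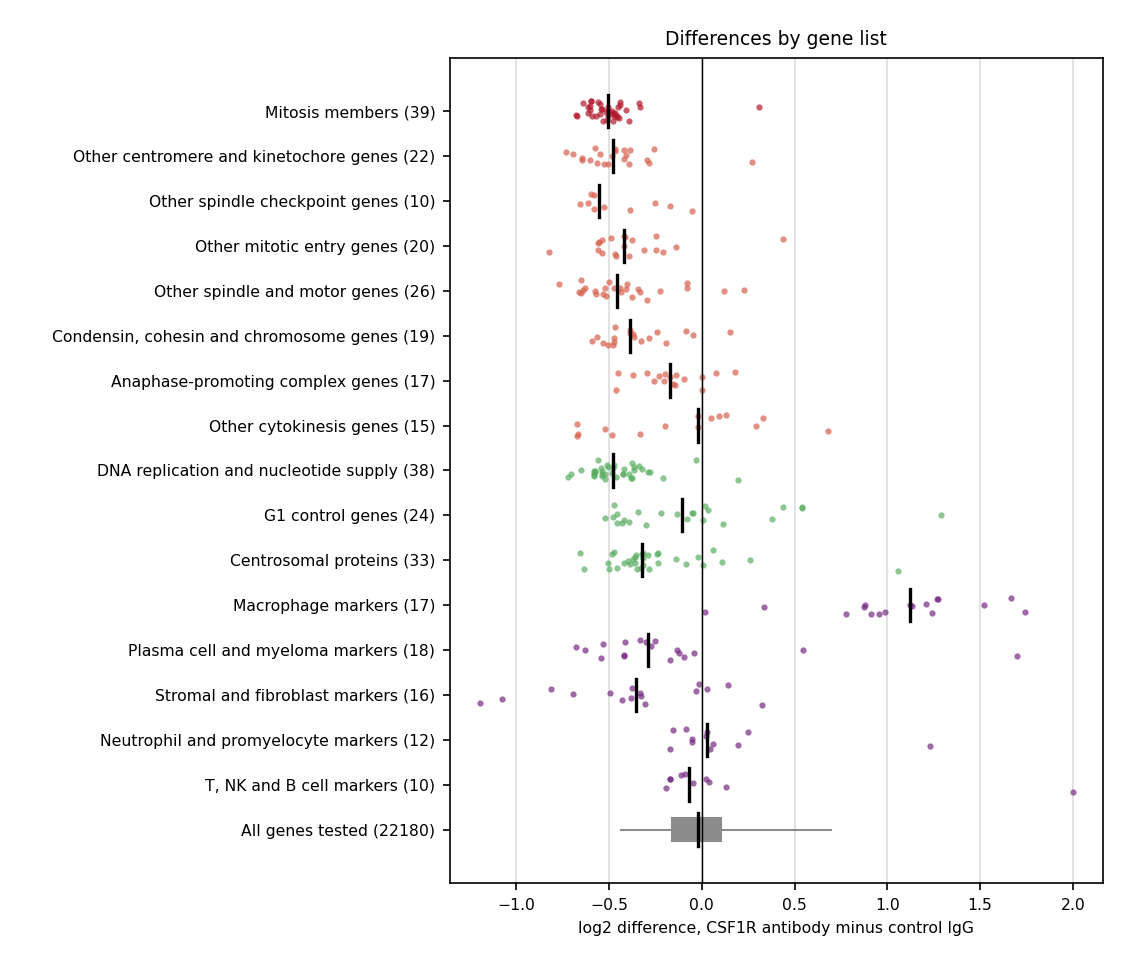
Log2 difference, CSF1R antibody minus control IgG, of each measured gene (points) by list, with the number of genes in brackets and a black bar at the median. For all genes tested the grey box spans the quartiles and the line the 5th to 95th percentile. The mitosis genes cluster near their median of −0.51, while macrophage markers lie to the right with a median of 1.12.

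Genes of neighbouring steps of the cycle are given for comparison, without a test of the lists against each other. They stand beside 16.0% lower and 12.5% higher over all genes, and 3414 lower and 2633 higher of the 13116 above the guide. Of 38 genes of DNA replication and nucleotide supply, 34 were lower and 1 higher (median −0.48), and Tk1 and Pole had the largest falls, 0.72 (SE 0.05) and 0.70 (SE 0.05). The gene that rose was Rfc2, of the clamp loader, by 0.20 (adjusted p = 0.044). Of 33 centrosomal genes, 24 were lower and 2 higher (median −0.32). Stil, needed to copy centrioles, fell by 0.65 (SE 0.06), while Nin, ninein, which anchors microtubules, rose by 1.06 (SE 0.09). The other that rose was Cep350, by 0.26 (adjusted p = 0.042). Of 24 genes controlling G1, 10 were lower and 5 higher (median −0.11). Rb1, the retinoblastoma repressor, rose by 1.29 (SE 0.07) and Cdkn2d, an inhibitor of Cdk4 and Cdk6, by 0.54 (SE 0.05). Rb1 had exactly the same value, 9.18, on all 3 antibody arrays. Rb1 and Pole each had 2 probe sets, and only the brighter is given. The other 3 that rose were Cdk6, Cdkn1a and Rbl2, by 0.54, 0.44 and 0.38. The 10 that fell were Myc, Ccnd1, Ccnd2, Ccne1, Cdk2, Cdk4, E2f2, E2f3, E2f7 and E2f8. The 9 not called were Mycn, Ccnd3, E2f1, E2f4 and the inhibitor genes Cdkn1b, Cdkn1c, Cdkn2a, Cdkn2b and Cdkn2c. Rbl1, counted above with the genes of mitotic entry, fell. Rfc2, Cep350, Cdk6, Cdkn1a and Rbl2 are named so that every gene of these lists that rose is given. The G1 genes that fell or were not called, and Rbl1, are named to set beside them. All of these were chosen after their values were seen. No gene named from these lists or from the marker lists below was retested with arrays left out.

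**Figure D4:**
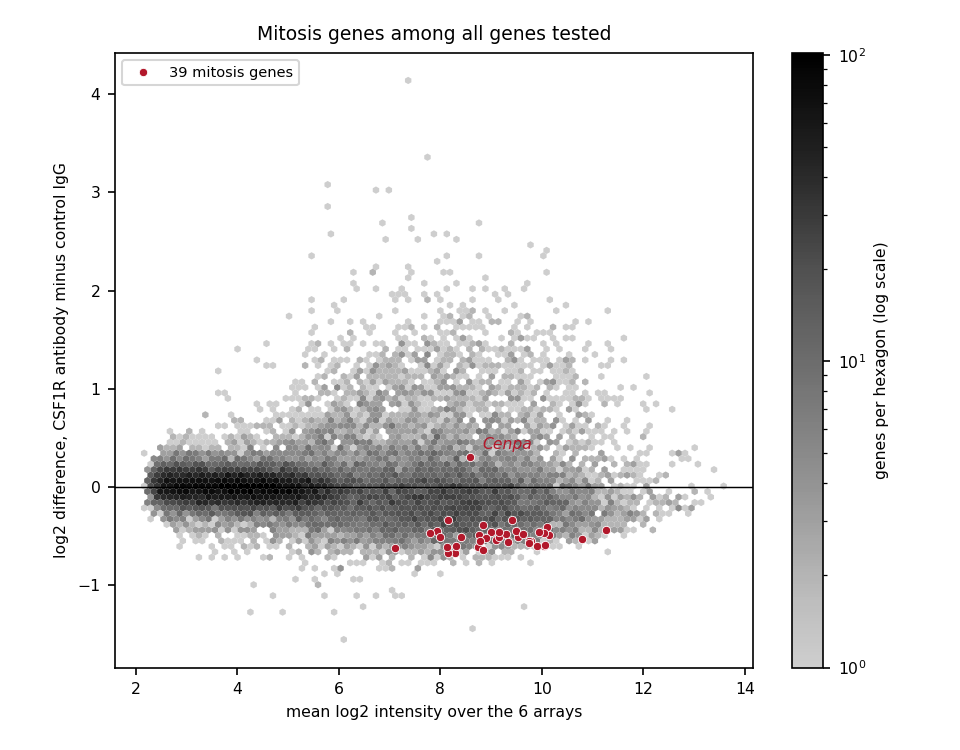
Log2 difference, CSF1R antibody minus control IgG, against mean log2 intensity over the 6 arrays for all 22180 genes (grey hexagons, shaded by number of genes on a log scale) and the 39 mitosis genes (circles). The 38 genes that fell form a band low in the cloud over the range of signal from 7.11 to 11.3, and Cenpa lies above 0.

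Markers of the cells in culture moved on the same arrays. Their counts stand beside 16.0% lower and 12.5% higher over all genes, and 3414 lower and 2633 higher of the 13116 above the guide. Macrophage markers were above the guide in 16 of 17 cases, all but Cd163. Of the 17, 16 rose and 0 fell, and the median log2 difference was 1.12. Their summed linear intensity was 48266 to 50607 on the antibody arrays, against 25784 to 26731 on the IgG arrays. Of 18 plasma cell and myeloma markers, 10 fell and 2 rose (median −0.29), and their summed intensity was 22219 to 24086 on the antibody arrays, against 25751 to 26293 on the IgG arrays. Tnfrsf17, Cd79a and Igll1 lay below the guide, and the other 15 lay above it. The 2 that rose were Cd28, by 1.70, and Slamf7, by 0.55, and the largest fall was that of Eaf2, 0.68. Of 16 stromal markers, 9 fell and 1 rose (median −0.35), with sums of 1640 to 1687 on the antibody arrays, against 2836 to 2913 on the IgG arrays. Acta2 and Postn had the largest falls, 1.20 and 1.08. Dcn, Lum and Lepr were below the guide, and Dcn was the gene that rose, by 0.32. Neutrophil and promyelocyte markers lay below the guide in 8 of 12 cases, and T, NK and B cell markers in 8 of 10. In each of these lists 1 gene rose and 0 fell: Mmp8, a neutrophil collagenase, by 1.23 and Cd4, a T cell coreceptor, by 2.00. The neutrophil list summed to 1002 to 1134 on the antibody arrays, against 583 to 606 on the IgG arrays, and the T, NK and B cell list to 465 to 489 on the antibody arrays, against 255 to 280 on the IgG arrays. Without Mmp8 the other 11 neutrophil genes summed to 251 to 257 on the antibody arrays, against 241 to 256 on the IgG arrays. Without Cd4 the other 9 genes of its list summed to 167 to 189 on the antibody arrays, against 182 to 193 on the IgG arrays. On the same linear scale the 39 mitosis genes summed to 21756 to 22833 on the antibody arrays, against 30902 to 31743 on the IgG arrays. How much of the fall of the mitosis genes went with a changed share of macrophages, myeloma cells or stromal cells was not tested.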

How the data were processed

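Total RNA, labelled with biotin by the WT PLUS kit per the labels' protocols, was hybridised to 6 GeneChip Mouse Gene 2.0 ST arrays, 3 per group. The deposited values are probe set intensities on a linear scale. Per the submitters' processing notes, the tools were RMA and limma, without versions or the step each served, and the genome build is not given in the sources used here. RMA as usually run makes the distributions of arrays alike, so a shift shared by most genes would be hidden, and it tends to shrink fold changes.

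Values were taken as log2. Of 41345 probe sets, 23521 had 1 gene symbol in the platform annotation, which can be old. Each of 22180 genes was represented by its probe set of highest mean signal, and each of the 39 mitosis genes had 1. No filter on low signal was set. The groups were tested by linear models (limma 3.58.1, R 4.3.3, moderated by eBayes) with Benjamini-Hochberg adjustment over all genes and a threshold of 0.05. The code was also run on simulated arrays with independent noise and no equal values, which does not test the calls made here. Levels are log2 intensities, differences are antibody minus IgG, and the standard error (SE) is the moderated one. Precision is limited by having 3 arrays per group.

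The mitosis genes and all lists were chosen with earlier results of these data known, so lists are described by counts and medians without a test. By rule, array values were given for the members with the largest and smallest difference in each role and for 4 central regulators. Other lists of mitosis genes gave their 2 largest called differences and any opposed call, and the remaining lists up to 2 of their largest. Slamf7 and Dcn, like the genes so marked in the text, were named after their values were seen. Promoters came from RefSeq (GRCm38.p6). Alternatives were variance models, scalings, filters, probe set choices, a stricter threshold, a block on replicate number, and omission of each array in turn. Figures used matplotlib 3.10.9 in Python 3.11.15.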

Additional observations from a re-analysis of the deposited data

How the results depend on the processing

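Over 19 alternative settings the count of mitosis genes that fell stayed at 37 or 38 of 39, except that only 25 of them could be tested, with 24 lower, when genes with exactly equal values within a group were left out, an alternative chosen after the data were seen. Cenpa stayed the 1 gene that rose under all of them but a threshold of 0.01, where 0 rose. The median was −0.46 with arrays centred on their medians and −0.39 with cyclic loess, against −0.51, and lay between −0.53 and −0.48 with each array left out. Of 727 values of single members under these settings, 720 kept their call, 7 lost it (6 of Spc25, 1 of Cenpa) and 0 changed sign. Among other mitosis genes, 10 rose with cyclic loess and 3 without genes of equal values, against 6, and Ska2 differed by 0.078 on its dimmer probe set. All 39 genes were above the receptor guide.

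With the replicate number of the labels as a replicate block, 38 members fell and 1 rose, with a median of −0.51, and 92 other mitosis genes fell and 4 rose, with Cenpo (adjusted p = 0.054) and Haus8 (0.074) no longer called. Over all genes, deviations of same-numbered arrays correlated at 0.03, −0.05 and 0.00, and those of differently numbered arrays at −0.07 to 0.07. Noise of single arrays could hide a shared mouse or batch, so these values cannot tell whether the numbers pair the arrays.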

Other observations

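Exactly equal values were more common on the antibody arrays. Of the 39 mitosis genes, 14 had 2 or 3 equal values among the antibody arrays and 0 had any among the IgG arrays. Over all genes, 17.8% had such values among antibody arrays, against 10.9% among IgG arrays. Over the 13116 genes above the receptor guide, 18.4% had them among antibody arrays, against 6.15% among IgG arrays. Ndc80 had the same value on all 3 antibody arrays, so its SD there was 0, and its SE rests on the IgG arrays and on the variance that limma borrows from other genes. How the equal values arose was not tested.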
